A study of Mus musculus with 6 samples.

Results

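Type I interferon-stimulated genes are a set of 37 mouse genes chosen by symbol from a fixed list of antiviral and interferon-feedback genes. The list was drawn up with earlier results of these data known, so no test was run over it. The deposited count table held 15458 gene symbols and contained 36 of the 37; Mx2 was not analysed here. All 36 passed the filter on low counts, and 13120 genes were tested in all. Kupffer cells, macrophages that reside in the liver, were sorted by flow cytometry from C57BL/6 mice labelled wild type. Every mouse carried tumours of Hepa1-6, a mouse hepatoma line, and livers were taken on day 18 after implantation. In the KC_EV group the tumour cells held an empty vector, and in the KC_Epo group they overexpressed erythropoietin, the hormone that drives red cell formation; each group had 3 libraries. No group without a tumour was measured, and neither the age of the mice nor the number of Hepa1-6 clones is stated in the labels. Mice are numbered in the labels, but whether each library is 1 animal is not stated, so p-values reflect only the spread among libraries, which may be technical.

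Type I interferons are secreted proteins that cells make when they sense viral or misplaced nucleic acid. They bind the receptor chains IFNAR1 and IFNAR2, whose kinases JAK1 and TYK2 phosphorylate STAT factors; these join IRF9 in the complex ISGF3, which binds interferon-stimulated response elements in promoters. The induced genes encode proteins that bind or degrade viral RNA, sensors that feed the loop, and inhibitors that close it. Kupffer cells line the liver sinusoids and take up particles and aged red cells from the blood.

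Each library held 23201076 to 33280754 counts, and the members made up 0.5467 to 0.5613% of counts in KC_EV and 0.6105 to 0.6612% in KC_Epo. Levels are TMM-scaled CPM, a library's count of a gene per unit of its scaled total, with means ± SD over 3 libraries. Kupffer cell markers summed to 37100 to 39700 CPM in KC_EV against 53300 to 61200 CPM in KC_Epo; of the 15, 10 were higher, among them Clec4f, Vsig4, Marco and Cd163, and Adgre1 was lower. Markers of other cells were present and differed between the groups. Hepatocyte markers summed to 3140 to 3880 CPM in KC_EV against 6770 to 23000 CPM in KC_Epo, with 12 of 20 higher. Erythroid markers summed to 33.5 to 43.1 and 606 to 1110 CPM, with 7 of 7 tested higher. Ahsp was not analysed here. Sinusoidal endothelial markers summed to 4990 to 6030 and 1740 to 2810 CPM, with 11 of 14 lower. The part of these cells in the results on the members was not tested. In bulk libraries, fewer cells of a type and less RNA per cell cannot be told apart.

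The members were mostly higher in KC_Epo, by modest amounts. By the edgeR quasi-likelihood test with Benjamini-Hochberg adjustment over all 13120 genes, 21 of 36 members were higher, 0 were lower and 15 did not pass an adjusted p of 0.05. Among all genes tested, 32.3% passed, 16.9% higher and 15.4% lower; among the members, 58.3% were higher. With library sizes alone as the scaling, which moves the median log2 fold change of all genes to -0.16, 9.09% of all genes were higher and 27.6% lower, and 19 members passed, of which 17 were higher and 2 (Parp14 and Rtp4) lower. The log2 fold changes, KC_Epo over KC_EV throughout, ran from -0.17 for Parp14 to 1.14 for Oas3, with a median of 0.29 against -0.0045 over all genes tested. Oas3, Ifit2, Ddx60, Isg20, Oas1g and Mx1 were the 6 members more than 1.5-fold higher, and of these only Oas3 was more than 2-fold higher; 16 members differed by less than 1.2-fold in either direction. The 3 KC_Epo libraries lay above the 3 KC_EV libraries for 24 members and below them for 1, where 24.1% and 24.2% of all genes tested, 48.3% together, were so separated. Isg15 and Ifit1, which often serve as markers of an interferon response, were among the 16 members below 1.2-fold.

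**Figure D1:**
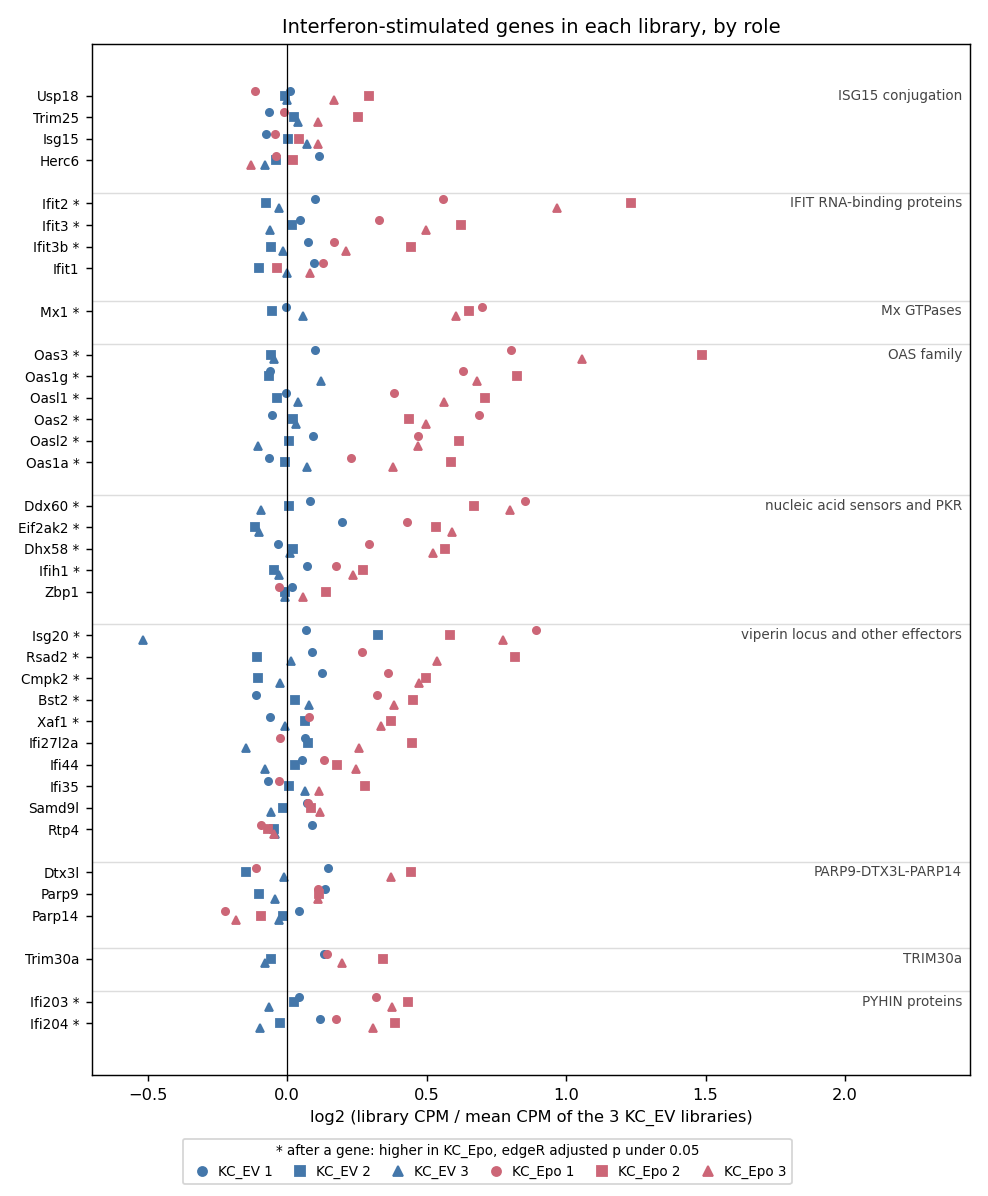
Each point is a library, placed by the log2 ratio of its CPM to the mean CPM of the 3 KC_EV libraries; members are grouped by role, blue marks KC_EV, red marks KC_Epo, and an asterisk marks a gene higher in KC_Epo at an adjusted p under 0.05. The OAS genes all sit to the right of the KC_EV libraries, the ISG15 conjugation genes straddle 0, and KC_Epo 2 is the rightmost KC_Epo point for 26 of 36 members.

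The plot of members by library shows calls that were unequally spread over the roles. All 6 OAS genes, 4 of 5 sensor genes and 3 of 4 IFIT genes were higher, while 0 of 4 genes of ISG15 conjugation and 0 of 3 of the PARP9-DTX3L-PARP14 group passed. The role medians of the log2 fold change were 0.55 for the OAS genes, 0.46 for the sensors with PKR, 0.38 for the IFIT genes, 0.25 for the other effectors, 0.11 for the PARP group and 0.08 for ISG15 conjugation. The sign of a log2 fold change between 0 and about 0.16 depends on the scaling, which covers Isg15, Usp18, Trim25 and Ifit1; these turned negative with library sizes alone.

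A motif of the interferon-stimulated response element occurred in promoters of members that rose and of members that did not. RefSeq promoters (build GRCm38.p6, from 250 bases before to 50 after the start) were at hand for 26 of the 36 members. The motif GAAANNGAAA, on either strand (TTTCNNTTTC on the other) and with overlapping matches counted, occurred in 14 of these 26 (53.8%) and in the promoters of 1079 of 27025 genes in the table (3.99%). The motif was also found for 30 of 63 other interferon-stimulated genes (47.6%) and 12 of 25 genes on an interferon gamma response list (48%), both lists described below. It occurred in 11 of 17 members that were higher (64.7%) and in 3 of 9 that did not pass (33.3%), which were Isg15, Ifit1 and Trim30a. In Ifih1 and Eif2ak2, both higher, it lay only after the start. Ifit2, Oasl1, Oasl2, Cmpk2, Isg20 and Xaf1 were higher and had no match. The sequences that follow are stretches of 70 bases from the part before the start, written 5′ to 3′ along the gene with the motif in capitals, and were chosen to set members that rose beside members that did not. Those of Oas3 (chr5:120777700-120777769, minus strand), Ddx60 (chr8:61928017-61928086, plus), Ifit3 (chr19:34583372-34583441, plus), Ifit3b (chr19:34607768-34607837, plus), Oas1a (chr5:120907526-120907595, minus) and Oas1g (chr5:120887614-120887683, minus) belong to genes that were higher in KC_Epo. Those of Isg15 (chr4:156200850-156200919, minus) and Ifit1 (chr19:34640769-34640838, plus) belong to genes that did not pass.
Oas3: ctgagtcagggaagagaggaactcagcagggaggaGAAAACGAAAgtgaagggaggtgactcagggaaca
Ddx60: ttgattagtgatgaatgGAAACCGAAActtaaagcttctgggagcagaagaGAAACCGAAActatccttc
Ifit3: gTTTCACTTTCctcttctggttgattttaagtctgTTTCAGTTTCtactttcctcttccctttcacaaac
Ifit3b: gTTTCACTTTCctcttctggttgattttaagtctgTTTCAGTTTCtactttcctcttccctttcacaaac
Oas1a: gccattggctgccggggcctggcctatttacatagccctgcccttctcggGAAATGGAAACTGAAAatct
Oas1g: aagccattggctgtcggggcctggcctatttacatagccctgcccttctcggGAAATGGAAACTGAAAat
Isg15: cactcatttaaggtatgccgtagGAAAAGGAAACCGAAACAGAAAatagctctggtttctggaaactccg
Ifit1: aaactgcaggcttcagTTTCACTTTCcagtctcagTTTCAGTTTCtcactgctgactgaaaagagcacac

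Isg15 carried 3 overlapping matches and did not pass, while Oas3 carried 1 and had the highest fold change of the members. The stretches of Ifit3 and Ifit3b are the same letter for letter, as are most letters of Oas1a and Oas1g, and these pairs also share much of their transcripts. A match is a description of these letters and not a bound site. The promoters of Usp18, Mx1, Oas2, Dhx58, Zbp1, Ifi27l2a, Rtp4, Parp9, Parp14 and Ifi204 were not analysed here.

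The OAS enzymes detect double-stranded RNA and make 2′-5′ oligoadenylates, which switch on the nuclease RNase L. All 6 were higher in KC_Epo, and the groups did not overlap for any of them. Oas3, the family member that prefers long double-stranded RNA, stood at 105, 93.9 and 94.5 CPM in the KC_EV libraries (in the order 1, 2, 3, as for all genes) and at 170.5, 274 and 203 CPM in the KC_Epo libraries. Its KC_Epo libraries were all above its KC_EV libraries but spread widely, with KC_Epo 2 at 1.61 times KC_Epo 1. The mean rose from 97.7 ± 6.14 to 216 ± 52.8 CPM, a log2 fold change of 1.14 with a standard error of 0.17, given after ± for all fold changes (edgeR adjusted p = 0.00393). Oas2, which makes the same product, was at 677, 712 and 719 CPM in KC_EV against 1130.5, 951 and 992 CPM in KC_Epo. Here KC_Epo 1 was the highest library, the reverse of its place for Oas3. The log2 fold change was 0.54 ± 0.08 (edgeR adjusted p = 0.000398).

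Oas1g was at 93.3, 93.1 and 106 CPM in KC_EV and at 151, 173 and 156 CPM in KC_Epo, and rose by 0.71 ± 0.08 on the log2 scale (edgeR adjusted p = 4.79e-05). Its neighbour Oas1a, a close copy, went from 119.6, 124 and 132 CPM to 147, 188 and 163 CPM, or 0.41 ± 0.09 (edgeR adjusted p = 0.00495). These 2 genes share sequence: 57.6% of the 50-base stretches of Oas1a transcripts occur in Oas1g, so reads can move between them and the single values are uncertain. Oasl1 and Oasl2 are OAS-like proteins; Oasl1 is known to restrain the translation of Irf7. Oasl2 went from 192 ± 13.1 to 275 ± 16.3 CPM (0.52 ± 0.08, edgeR adjusted p = 0.000384) and Oasl1 from 119 ± 3.04 to 175 ± 19.8 CPM (0.56 ± 0.08, edgeR adjusted p = 0.000438). Neither shares a 50-base stretch with another gene.

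IFIT proteins bind viral RNA with foreign 5′ ends and block its translation. Ifit2 was at 101, 89.3 and 92.1 CPM in KC_EV and at 139, 221 and 184 CPM in KC_Epo. The lowest KC_Epo library stood above the highest KC_EV library, and the KC_Epo libraries differed among themselves by up to 1.6 times. Its mean rose from 94.1 ± 6.07 to 181 ± 41.4 CPM, a log2 fold change of 0.95 ± 0.17 (edgeR adjusted p = 0.00635). Ifit3, a partner that stabilizes IFIT complexes, was at 163, 160.2 and 152 CPM in KC_EV against 199, 244 and 223 CPM in KC_Epo, 0.49 ± 0.08 higher (edgeR adjusted p = 0.000893). Its copy Ifit3b was at 34.0, 31.0 and 32.0 CPM and at 36.3, 44.0 and 37.4 CPM, a rise of 0.28 ± 0.09 (edgeR adjusted p = 0.0404). Of the 50-base stretches of Ifit3, 51.2% occur in Ifit3b. The call for Ifit3b was lost without KC_EV 2, KC_EV 3, KC_Epo 2 or KC_Epo 3, at edgeR adjusted p values of 0.129, 0.108, 0.153 and 0.0722. It was also lost with library sizes alone (0.12, edgeR adjusted p = 0.318).

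Ifit1 is next to these genes in the genome and recognizes viral RNA that lacks the host cap methylation. It was at 22.5, 19.6 and 21.0 CPM in KC_EV and at 23.0, 20.5 and 22.3 CPM in KC_Epo. The groups overlapped, and the log2 fold change of 0.06 ± 0.10 did not pass (edgeR adjusted p = 0.699). Ifit1 shares 7.13% of its 50-base stretches with other genes, mostly with Ifit1bl2.

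Mx1 is a dynamin-like GTPase that traps viral nucleoproteins. It was at 89.1, 86.0 and 93.0 CPM in KC_EV and at 145, 140.4 and 136 CPM in KC_Epo. The libraries of each group lay close together and far from the other group. Mx1 rose by 0.65 ± 0.07 on the log2 scale (edgeR adjusted p = 2.73e-05), or 1.57-fold. C57BL/6 mice are known to carry a Mx1 allele with missing exons, so the transcript level does not stand for a working protein in this strain.

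Among the sensors, Ddx60, a helicase described as a cofactor of RIG-I-like receptors, had the smallest adjusted p of all members. Its levels were 86.0, 81.7 and 76.1 CPM in KC_EV against 147, 129 and 141 CPM in KC_Epo. The groups were clearly apart, and the log2 fold change was 0.78 ± 0.08 (edgeR adjusted p = 1.9e-05). Dhx58, which encodes LGP2, a regulator of RIG-I and MDA5, rose from 119, 123 and 123 CPM to 149, 179.8 and 175 CPM, by 0.46 ± 0.08 (edgeR adjusted p = 0.00101). Eif2ak2 encodes PKR, the kinase that stops translation when it binds double-stranded RNA. It was at 46.9, 37.8 and 38.2 CPM in KC_EV and at 55.2, 59.3 and 61.7 CPM in KC_Epo (0.52 ± 0.10, edgeR adjusted p = 0.00157). KC_EV 1 was the highest KC_EV library for this gene but remained below all 3 KC_Epo libraries.

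Ifih1 encodes MDA5, the sensor of long double-stranded RNA in the cytosol. Its change was small, from 72.8 ± 3.25 to 85.2 ± 2.89 CPM, or 0.23 ± 0.07 (edgeR adjusted p = 0.0265). The call was lost without KC_EV 2, KC_EV 3, KC_Epo 2 or KC_Epo 3 (edgeR adjusted p of 0.105, 0.0922, 0.0654 and 0.0909). It was also lost with library sizes alone (0.069, edgeR adjusted p = 0.437). Zbp1, which senses Z-form nucleic acid and can start necroptosis, was at 128, 125 and 126 CPM in KC_EV against 123, 139 and 131 CPM in KC_Epo. Its groups overlapped and it did not pass (edgeR adjusted p = 0.57).

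The remaining effectors were split, with 5 of 10 higher and 5 not passing. Rsad2 encodes viperin, which makes a chain-terminating nucleotide, and Cmpk2, beside it in the genome, supplies the nucleotide. Rsad2 was at 99.7, 87.0 and 94.6 CPM in KC_EV and at 113, 165 and 136 CPM in KC_Epo, a rise of 0.56 ± 0.13 (edgeR adjusted p = 0.0115). Cmpk2 was at 41.0, 35.0 and 37.0 CPM and at 48.4, 53.2 and 52.2 CPM, a rise of 0.44 ± 0.09 (edgeR adjusted p = 0.00204). The KC_Epo libraries of Rsad2 spread 1.46-fold, more than those of Cmpk2, and neither gene's groups overlapped.

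Bst2, the tetherin that holds budding virus at the cell surface, was at 284, 313 and 324 CPM in KC_EV against 384, 419 and 400.4 CPM in KC_Epo. The gap between the groups exceeded the spread within either, and the log2 fold change was 0.39 ± 0.08 (edgeR adjusted p = 0.00223). Bst2 also marks plasmacytoid dendritic cells, whose other 9 markers summed to 124 to 133 CPM in KC_EV against 94.5 to 100 CPM in KC_Epo, 4 of them lower and 0 higher. Isg20, an exonuclease that degrades RNA, had levels of 6.37, 7.61 and 4.25 CPM in KC_EV against 11.3, 9.11 and 10.4 CPM in KC_Epo. It was the member with the lowest counts and the widest relative spread in KC_EV. It rose by 0.76 ± 0.21 (edgeR adjusted p = 0.0166), a call lost without KC_EV 3 (0.56, edgeR adjusted p = 0.058) or KC_Epo 3 (edgeR adjusted p = 0.0592).

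Xaf1, a pro-apoptotic antagonist of XIAP, rose from 90.1 ± 3.95 to 108 ± 11.7 CPM (0.27 ± 0.09, edgeR adjusted p = 0.0309). This call was lost without each library but KC_Epo 1, with edgeR adjusted p values of 0.0882, 0.0544 and 0.0906 without KC_EV 1 to 3 and of 0.0804 and 0.124 without KC_Epo 2 and 3. It was also lost with library sizes alone (0.11, edgeR adjusted p = 0.323). Ifi44, Samd9l, Ifi27l2a, Ifi35 and Rtp4 did not pass. Ifi44 was at 30.8, 30.3 and 28.1 CPM in KC_EV and at 32.6, 33.7 and 35.3 CPM in KC_Epo; its groups did not overlap, but the log2 fold change was only 0.19 ± 0.09 (edgeR adjusted p = 0.119). Ifi27l2a was at 276, 279 and 239 CPM in KC_EV and at 259.5, 361 and 316 CPM in KC_Epo, with KC_Epo 1 inside the KC_EV range, and it passed without that library (0.36, edgeR adjusted p = 0.00485). Rtp4, a Golgi chaperone, had 241, 219 and 220.2 CPM against 213, 216 and 219.7 CPM.

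ISG15 is a ubiquitin-like protein that is attached to other proteins after interferon, HERC6 is its main ligase in mice, USP18 removes it and also blocks the receptor, and TRIM25 is a ligase that helps activate RIG-I. These 4 genes showed overlapping groups. Isg15 was at 62.7, 66.3 and 69.5 CPM in KC_EV against 64.1, 68.2 and 71.5 CPM in KC_Epo (0.04 ± 0.08, edgeR adjusted p = 0.741). The libraries of the groups interleaved. Usp18 was at 43.9, 43.4 and 43.6 CPM in KC_EV and at 40.3, 53.5 and 49.0 CPM in KC_Epo (0.12 ± 0.10, edgeR adjusted p = 0.363). KC_Epo 1 lay below and the other KC_Epo libraries above the narrow KC_EV range, and without KC_Epo 1 Usp18 passed (0.24, edgeR adjusted p = 0.0441). Trim25 was at 293 ± 11.5 and 319 ± 29.5 CPM (0.12 ± 0.08, edgeR adjusted p = 0.27), and Herc6 at 45.9 ± 3.32 and 44.4 ± 2.34 CPM (-0.05 ± 0.08, edgeR adjusted p = 0.7).

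PARP9, DTX3L and PARP14 are ADP-ribosylation factors that act on interferon signalling. Parp14 was at 439.7, 422 and 418 CPM in KC_EV against 366, 399.6 and 375 CPM in KC_Epo. It was the only member whose KC_Epo libraries all lay below the KC_EV libraries, with a log2 fold change of -0.17 ± 0.07 (edgeR adjusted p = 0.0857); with upper-quartile factors it passed as lower (-0.23, edgeR adjusted p = 0.0269). Dtx3l, which shares a promoter region and some exon sequence on the opposite strand with Parp9, was at 88.2, 71.9 and 79.1 CPM in KC_EV against 73.8, 108 and 103 CPM in KC_Epo. KC_Epo 1 lay inside the KC_EV range, and without it Dtx3l passed (0.42, edgeR adjusted p = 0.00265) where it did not with all 6 libraries (0.25 ± 0.15, edgeR adjusted p = 0.245). Parp9 was at 115 ± 10.1 and 124 ± 0.132 CPM; it passed without KC_EV 1 (0.19, edgeR adjusted p = 0.0468).

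Trim30a, a feedback inhibitor of Toll-like receptor signalling, was at 228, 199.6 and 197 CPM in KC_EV against 229, 264 and 238 CPM in KC_Epo. The groups did not overlap by a small margin, and it narrowly did not pass (0.23 ± 0.08, edgeR adjusted p = 0.0513); it passed without KC_EV 1 (0.30, edgeR adjusted p = 0.0209) or KC_Epo 1 (0.28, edgeR adjusted p = 0.019). The PYHIN proteins Ifi203 and Ifi204 belong to a family that binds DNA. Ifi203 was at 298, 295 and 277 CPM in KC_EV and at 362, 392 and 376 CPM in KC_Epo, and rose by 0.38 ± 0.07 (edgeR adjusted p = 0.00163). Ifi204 was at 275, 249 and 237 CPM and at 286, 331 and 314 CPM, a rise of 0.29 ± 0.08 (edgeR adjusted p = 0.0168), lost without KC_EV 2, KC_EV 3 or KC_Epo 3 (edgeR adjusted p of 0.0688, 0.0893 and 0.072). The Ifi204 call was also lost with library sizes alone (0.13, edgeR adjusted p = 0.187). Ifi203 and Ifi204 belong to a cluster of copies: 16.5% of the 50-base stretches of Ifi203 and 30.2% of those of Ifi204 occur in other genes. Between Ifi203 and Ifi204 themselves, 0% of these stretches are shared.

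Within each group the members tended to move together from library to library. KC_Epo 2 was the highest KC_Epo library for 26 of 36 members, against 37.0% of all genes tested, and KC_Epo 1 was the lowest for 29 of 36, against 38.7%. In KC_EV, library 1 was the highest for 23 of 36 members, against 37.1% of all genes. Mx1, Oas2, Ddx60, Isg20 and Ifit1 went against this order and were highest in KC_Epo 1. Over members, the median deviation of log2 CPM from the mean of the 6 libraries was -0.11, -0.17 and -0.18 in the KC_EV libraries and 0.05, 0.24 and 0.18 in the KC_Epo libraries, so KC_Epo 1 was the library of its group nearest to KC_EV. Hepatocyte markers summed to 22970, 6774 and 13820 CPM and erythroid markers to 1109, 606.4 and 810.5 CPM in KC_Epo 1 to 3, in the opposite order to the members; their part in the order was not tested. Without KC_Epo 1 the number of members called rose from 21 to 25, and without KC_EV 3 or KC_Epo 3 it fell to 16. The share of all genes that passed moved likewise, from 32.3% to 34.1% without KC_Epo 1, 22.6% without KC_EV 3 and 20.3% without KC_Epo 3.

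Count ratios between a pair of genes within a library do not depend on scaling between libraries. The pairs were chosen after their values were seen, so they describe these libraries and carry no test. The Ifit2 to Ifit1 ratio was 4.485, 4.549 and 4.386 in KC_EV and 6.036, 10.78 and 8.254 in KC_Epo. The Oas3 to Isg15 ratio was 1.672, 1.416 and 1.359 in KC_EV and 2.658, 4.015 and 2.841 in KC_Epo. In both cases all 3 KC_Epo libraries lay above all 3 KC_EV libraries, so the unequal change of these members was present in each library. For the close copies, the Oas1g to Oas1a ratio was 0.7801, 0.7485 and 0.8049 in KC_EV and 1.03, 0.9188 and 0.958 in KC_Epo, and the Ifit3 to Ifit3b ratio was 4.802, 5.16 and 4.74 and then 5.48, 5.536 and 5.971.

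**Figure D2:**
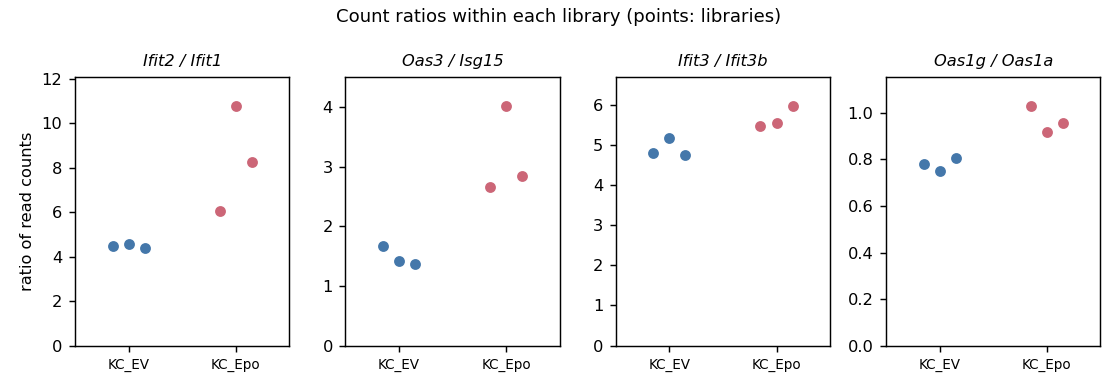
Each point is the ratio of 2 genes' read counts in 1 library, for 4 pairs of genes, with KC_EV in blue, KC_Epo in red and every vertical axis starting at 0. The groups are separate in all 4 panels, and the Ifit2 to Ifit1 ratio is the most spread in KC_Epo, from 6.036 to 10.78.

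In the plot of count ratios, the close copies changed less against each other than Ifit2 against Ifit1. The pathway genes upstream of the members (interferons, receptor and kinases, STAT and IRF factors, sensors and adaptors, inhibitors) did not move in one direction. Of 56 listed, 34 were tested, of which 10 were higher (29.4%) and 5 lower (14.7%), with a median log2 fold change of 0.12. With library sizes alone as the scaling, 6 were higher and 11 lower, where 9.09% of all genes were higher and 27.6% lower.

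Transcripts of the type I interferons themselves were nearly undetected. Of 18 listed interferon genes, 2 had counts: Ifnb1 had 6 counts, all in KC_EV 3, and Ifnk had 1 and 4 counts in KC_Epo 1 and 2; neither reached the level needed for a test, and the other 16 were not analysed here. The receptor chain Ifnar1 was at 115, 120.1 and 120.3 CPM in KC_EV and at 150.3, 146 and 152 CPM in KC_Epo. The groups did not overlap, and Ifnar1 rose by 0.33 ± 0.07 (edgeR adjusted p = 0.00225), a call lost with library sizes alone (0.18, edgeR adjusted p = 0.0501). Ifnar2, the chain that binds interferon with the higher affinity, went from 167, 161 and 164 CPM to 183, 194 and 194 CPM (0.21 ± 0.07, edgeR adjusted p = 0.027), lost without KC_EV 2, KC_EV 3, KC_Epo 2 or KC_Epo 3 (edgeR adjusted p of 0.106, 0.0845, 0.053 and 0.111). The Ifnar2 call was also lost with library sizes alone (0.054, edgeR adjusted p = 0.507). The kinases Jak1 (-0.19 ± 0.08) and Tyk2 (0.23 ± 0.08) did not pass.

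Of the factors that act below the receptor, several differed between the groups. Stat2, a part of ISGF3, was at 378, 379 and 385 CPM in KC_EV against 459, 421 and 429 CPM in KC_Epo, a rise of 0.20 ± 0.07 (edgeR adjusted p = 0.0456) that was lost without each library but KC_Epo 2 (edgeR adjusted p of 0.0679, 0.133 and 0.113 without KC_EV 1 to 3, and 0.0652 and 0.114 without KC_Epo 1 and 3). The Stat2 call was also lost with upper-quartile factors (0.13, edgeR adjusted p = 0.158) and with library sizes alone (0.037, edgeR adjusted p = 0.688). Irf9 was at 129, 132 and 131 CPM in KC_EV against 130.5, 124 and 132 CPM in KC_Epo, with overlapping groups (-0.02 ± 0.07, edgeR adjusted p = 0.833).

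Irf7, the factor that amplifies interferon production and is an interferon target itself, was at 577, 635 and 662 CPM in KC_EV and at 895, 1087 and 1011 CPM in KC_Epo. All KC_Epo libraries were above all KC_EV libraries, and the rise was 0.68 ± 0.09 (edgeR adjusted p = 0.000153). Irf8, a macrophage and dendritic cell factor, rose by 0.48 ± 0.08 (edgeR adjusted p = 0.000616). Irf1, which is induced mainly by interferon gamma, was at 439, 456 and 451 CPM in KC_EV and at 348, 337 and 349 CPM in KC_Epo, and fell by 0.38 ± 0.07 (edgeR adjusted p = 0.00108).

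**Figure D3:**
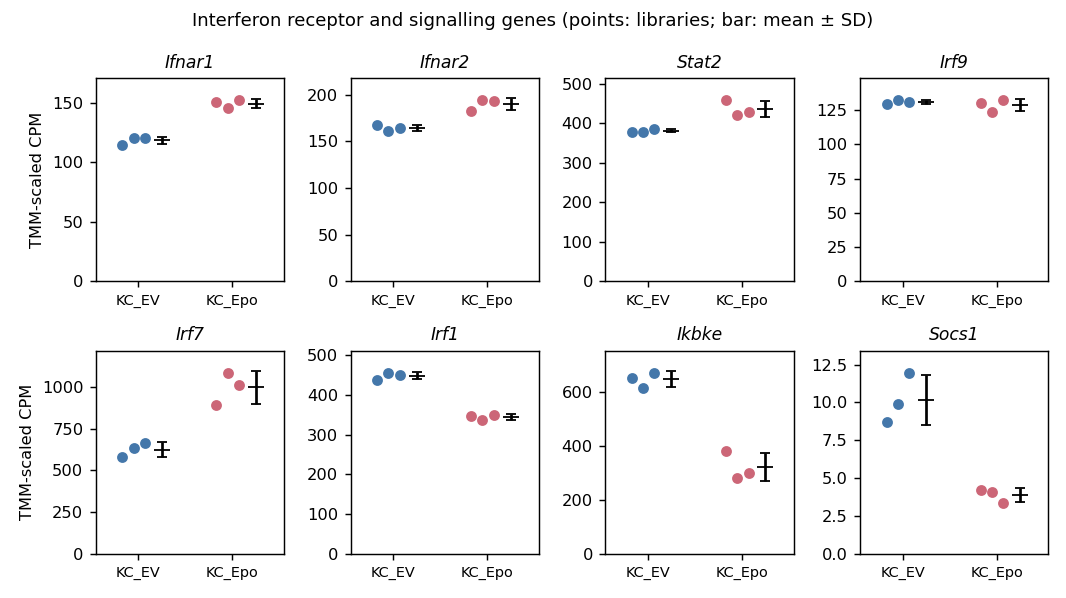
TMM-scaled CPM of 8 receptor and signalling genes in each library (points) with the mean and SD of each group (bar, n = 3), all vertical axes starting at 0. Ifnar1 and Irf7 are higher in KC_Epo and Irf1, Ikbke and Socs1 lower, with no overlap of the groups, while Irf9 overlaps.

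In the plot of pathway genes, genes in either direction have groups that do not overlap. Among 13 tested sensors and adaptors, 4 were higher and 2 lower. Tlr7, the endosomal receptor for single-stranded RNA, rose by 0.67 ± 0.08 (edgeR adjusted p = 8.27e-05), and Mavs, the mitochondrial adaptor of RIG-I and MDA5, by 0.55 ± 0.07 (edgeR adjusted p = 0.00011). Ddx58, the older symbol of the RIG-I gene, rose by 0.42 ± 0.07 (edgeR adjusted p = 0.000719), so Ddx58, Ifih1 and Dhx58, the RIG-I-like receptors, were all higher. The kinases TBK1 and IKK-epsilon phosphorylate IRF3 and IRF7, and their genes went opposite ways. Tbk1 rose by 0.23 ± 0.07 (edgeR adjusted p = 0.0253). Ikbke, which encodes IKK-epsilon, was at 652, 613 and 671 CPM in KC_EV against 380.4, 280.3 and 300.3 CPM in KC_Epo, and fell by 1.01 ± 0.11 (edgeR adjusted p = 4.46e-05). The other fall was Mb21d1, the older symbol of the cGAS gene, at 20.5, 18.4 and 20.03 CPM in KC_EV against 13.4, 13.9 and 18.3 CPM in KC_Epo (-0.37 ± 0.13, edgeR adjusted p = 0.04996), and this call was lost without any one library other than KC_Epo 3, at edgeR adjusted p values from 0.0813 to 0.133. Inhibitors limit the response at the receptor or remove what triggers it, and of 8 tested, 1 was higher and 1 lower. Adar, which edits double-stranded RNA, rose by 0.39 ± 0.07 (edgeR adjusted p = 0.00135). Socs1, which blocks JAK kinases, was at 8.70, 9.88 and 11.98 CPM in KC_EV against 4.21, 4.05 and 3.33 CPM in KC_Epo, and fell by 1.39 ± 0.19 (edgeR adjusted p = 0.000221).

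Other gene lists place the members beside their nearest relatives. A longer list of other interferon-stimulated genes had 25 of 71 higher (35.2%) and 5 lower (7.04%), with a median log2 fold change of 0.15; with library sizes alone, and the same shares of all genes, 15 were higher and 10 lower. Slfn1, a Schlafen gene, rose by 1.02 ± 0.14 (edgeR adjusted p = 0.000176), and the PYHIN genes Ifi205 and Ifi213 rose by 0.84 ± 0.11 (edgeR adjusted p = 0.000143) and 0.57 ± 0.08 (edgeR adjusted p = 0.000168). Ifi27 fell by 0.85 ± 0.08 (edgeR adjusted p = 1.83e-05) and Ifitm2, which hinders viral entry, by 0.41 ± 0.07 (edgeR adjusted p = 0.000606).

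Genes known mainly as interferon gamma responses had the opposite balance, with 6 of 32 higher (18.8%), 20 lower (62.5%) and a median of -0.41. Ciita, the master factor of MHC class II genes, fell by 1.36 ± 0.08 (edgeR adjusted p = 3.55e-07), and Serpina3g fell from 626 ± 30.0 to 222 ± 5.59 CPM (edgeR adjusted p = 8.15e-08). Nos2, the inducible nitric oxide synthase, had the lowest fold change of the list, named after its value was seen, from 8.71 ± 2.26 to 1.39 ± 0.624 CPM (-2.62 ± 0.32, edgeR adjusted p = 0.000118). Il18bp, the IL-18 decoy, went the other way (0.90 ± 0.09, edgeR adjusted p = 2.34e-05), as did the guanylate-binding genes Gbp7 (0.69 ± 0.08, edgeR adjusted p = 8.27e-05) and Gbp8 (0.59 ± 0.07, edgeR adjusted p = 4.77e-05). Irf1 and Socs1 stand on both the pathway list and this list. The list and its counts also include Ifng itself (lower) and the genes of its receptor, Ifngr1 (higher) and Ifngr2 (not passing), which are not responses. The members, by contrast, had 21 of 36 higher and 0 lower. No test compared the lists, and many genes of each respond to both kinds of interferon.

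**Figure D4:**
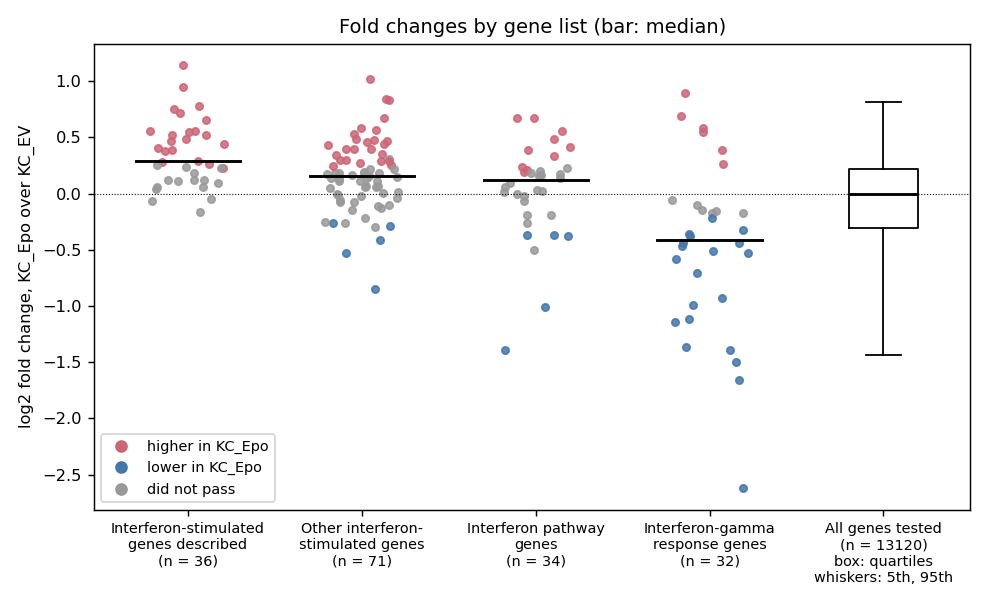
Log2 fold change, KC_Epo over KC_EV, of each tested gene (points) in 4 lists, with the list median as a bar and, at the right, a box of the quartiles of all 13120 genes tested with whiskers at the 5th and 95th percentiles. The 36 interferon-stimulated members have a median of 0.29 and no point marked lower, and the 32 interferon gamma response genes have a median of -0.41 with 20 marked lower.

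In the plot of lists, 33 of the 36 members lie above 0. Markers of other immune cells also differed between the groups. Conventional dendritic cell markers summed to 299 to 352 CPM in KC_EV against 280 to 301 CPM in KC_Epo (6 of 9 lower), and monocyte markers to 266 to 338 and 377 to 392 CPM (3 of 8 higher, 2 lower). Plac8 had the highest level of the monocyte list and rose from 132 ± 5.40 to 238 ± 34.0 CPM. The 2 lower monocyte markers were Ccr2 and F13a1, so the sum does not stand for the whole list. The plasmacytoid dendritic cell marker Siglech was at 2.39 ± 0.135 and 1.69 ± 0.206 CPM and did not pass. Immediate early and heat shock genes, which can rise during cell isolation, summed to 8860 to 9890 CPM in KC_EV against 10100 to 10900 CPM in KC_Epo, with 10 of 15 higher and 4 lower. The 4 lower were Btg2 and the heat shock genes Hspa1a (1194 to 469 CPM), Hspa1b (1419 to 457 CPM) and Hsp90aa1 (330 to 163 CPM). The part of these genes and cells in the members' difference was not tested. Leaving hepatocyte, erythroid and B and plasma cell markers out of the scaling left 21 members called, where 32.3% of all genes passed. This alters only the scaling between libraries and leaves the RNA of other cells in the counts, so it does not test their part.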

How the data were processed

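PolyA libraries were stranded, per the labels' protocols. Build GRCm39 is named in the submitters' processing notes, with STAR 2.7.3a, HTSeq 0.11.2, FastQC 0.11.8 and Bowtie2 2.5.1 in no stated role; how reads were counted is not stated there. The authors deposited whole-number read counts per gene symbol, not normalized (15458 rows, 12 symbols on more than 1 row, where the row with most counts kept the symbol). No column of per-sample values was left unmapped (0).

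The test was edgeR 4.0.16 in R 4.3.3, with TMM factors (1.05 to 1.067 in KC_EV, 0.934 to 0.959 in KC_Epo), the filterByExpr filter, the quasi-likelihood F test (robust, two-sided) and adjustment over 13120 genes. Standard errors came from the F statistic. The procedure was tested on simulated counts. Library pairs within a group differed by a chi-square per gene of at least 6.14. Alternatives used DESeq2 1.42.0, limma-voom 3.58.1, other scalings, filters and fits, and each library left out.

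The members, gene lists and tests were chosen with earlier results of these data known. Per role, the members named were those with the 2 smallest p-values and the largest change, beside close copies; per other list, up to 3 in each direction by adjusted p. All other genes named were chosen after their values were seen, and 1 gene that the rule names is not reported here. Transcript overlap used GENCODE M21 and promoters RefSeq on GRCm38.p6; as the authors' build differs, no coordinate was set against the counts. Of 36 members, 10 shared more than 5% of 50-base stretches with another gene, 7 overlapped exons on the opposite strand and 4 on the same strand. The 4 were Herc6, Rtp4, Parp14 and Ifi203, with 13.7%, 13.9%, 1.18% and 0.552% of exonic bases overlapped.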

Additional observations from a re-analysis of the deposited data

How the results depend on the processing

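Over the 18 alternatives, 12 of the 21 called members kept their call in each: Ifit2, Ifit3, Mx1, Oas1g, Oas2, Oas3, Oasl1, Oasl2, Dhx58, Ddx60, Eif2ak2 and Cmpk2. The other 9 lost it in at least 1, and 7 uncalled members passed in at least 1; 8 passed in none. Upper-quartile factors, with 13.1% of all genes higher and 19.3% lower, gave 17 members higher and 1 lower and 8 pathway genes lower. They turned Isg15 (-0.025), Ifit1 (-0.0034) and Zbp1 (-0.0062). Calls of Ifit3b, Ifih1, Xaf1, Ifi204, Stat2 and Ifnar2 were lost with these factors and also with library sizes alone. Library sizes alone, with 9.09% of all genes higher and 27.6% lower and their median at -0.16, gave a member median of 0.13, with 17 higher and 2 lower (Parp14 and Rtp4), pathway counts of 6 and 11, other interferon-stimulated counts of 15 and 10, and turned Isg15 (-0.12), Usp18 (-0.036), Trim25 (-0.039), Ifit1 (-0.10), Zbp1 (-0.10), Samd9l (-0.066), Ifi35 (-0.036) and Parp9 (-0.048). Testing against a 1.2-fold change, which passed 7.33% of all genes as higher and 8.96% as lower, left 12 members, all 12 higher. It gave pathway counts of 5 and 2, and other interferon-stimulated counts of 13 and 2. A non-robust fit gave 3 of the latter lower, where 15.5% of all genes were lower. Leaving out 1 library gave 16 to 25 members called, where 20.3% to 34.1% of all genes passed. It gave 2 to 4 other interferon-stimulated genes lower and a member median of 0.24 to 0.39. It turned Herc6 (-0.085 to 0.015, positive without KC_EV 1) and Irf9 (-0.032 to 0.014, positive without KC_Epo 2). The cause of these moves was not tested, beyond fewer samples and a stricter test.

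DESeq2 called 22 members (31.3% of genes given an adjusted p), limma-voom 21 (31.9% of all genes) and no filter 22 (26.7%). Summing pairs of related members gave 18 (32.2%), because Ifit3b, Oas1g and Ifi204, all called, were merged into Ifit3, Oas1a and Ifi203. The other called members kept their calls there. Same-numbered libraries of the groups did not deviate together (r of -0.108, -0.148 and -0.0407). With 3 libraries a group, these values cannot settle whether the numbers pair the libraries. A replicate block gave 17 members called and 3358 genes in all against 4234. All 15 uncalled members differed by under 1.2-fold, and of members that small 1 (Ifih1) passed; with 3 libraries a group such differences were mostly not told from the spread between libraries.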

Other observations

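Interferon lambda, the type III interferon, signals through IFNLR1 and IL10RB to the same ISGF3 complex and is known mainly from epithelial cells. Ifnlr1 had 8, 28 and 27 counts in the KC_EV libraries and 1, 5 and 0 counts in the KC_Epo libraries, too few to pass the filter, so it was not tested. Il10rb, which also serves the IL-10 receptor, rose from 175 ± 8.50 to 253 ± 10.96 CPM (SD, n = 3 each; log2 fold change 0.53 ± 0.07 SE, edgeR adjusted p = 0.000172). Ifng, the transcript of interferon gamma, which T and NK cells make, fell from 5.27 ± 1.41 to 2.43 ± 0.323 CPM (-1.12 ± 0.27, edgeR adjusted p = 0.00782), while T and NK cell markers summed to 99.1 to 118 CPM in KC_EV and 79.7 to 113 CPM in KC_Epo, with 1 of 12 lower.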
